A study of Mus musculus with 28 samples.

Results

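Plasmacytoid dendritic cells of the mouse liver were represented by 109 wells of single non-parenchymal cells, 4.05% of the 2692 wells that held at least 300 gene UMIs. A UMI, or unique molecular identifier, is a random tag that marks 1 captured mRNA molecule. The wells were chosen from their own counts: at least 2 UMIs summed over Siglech, Klk1, Cox6a2, Ccr9, Klra17 and Cd300c, and at most 1 UMI summed over Clec4f, Clec4g, Cd3g, Cd79b and Xcr1, which mark Kupffer cells, sinusoidal endothelium, T cells, B cells and conventional dendritic cells. The levels of these 11 genes are therefore a description of the choice, and the other 2583 wells formed the comparison. The series sequenced single cells and pairs of attached cells from livers of male C57BL/6 mice that had been fasted for 2 hours, anaesthetized with ketamine and xylazine, and perfused with collagenase. The single cells came from 11 libraries of 2 mice aged 3 and 4 months, the pairs (a hepatocyte with an attached CD31+ cell) from 17 libraries of 3 mice aged 6 or 7 weeks, and the labels list no engineered allele, challenge or other treatment for either group. The labels give no sort gate for the single non-parenchymal cells. Libraries were made with MARS-seq, a plate method that counts the 3′ end of each transcript, so a level does not depend on transcript length.

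Plasmacytoid dendritic cells are rare leukocytes of blood, lymphoid organs and liver that sense viral nucleic acids in endosomes through TLR7 and TLR9 and can release large amounts of type I interferon. The E protein TCF4 holds their identity against its inhibitor ID2, together with SPIB, BCL11A, IRF8 and RUNX2, and their surface carries SiglecH, BST2, Ly6D and the gut-homing receptor CCR9 in the mouse. They keep an extensive secretory apparatus, which gives them the plasma cell look of their name, and present antigen less actively than conventional dendritic cells do.

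No source maps a well to a library or a mouse, so the whole table was 1 sample, without a replicate check, a test or an SE. UMIs were summed over wells and given as a level per 1000000 gene UMIs. Every interval is an exact 95% interval and covers counting error only, not differences between mice or libraries. The 109 plasmacytoid wells held 109909 gene UMIs, with a median of 799 per well (309 to 3669) and 531 genes, against a median of 704 UMIs and 461 genes in the other wells. For reference, wells of 6 other classes were chosen by marker rules of the same form: 43 conventional dendritic, 189 B, 305 T, 68 NK, 262 Kupffer and 751 endothelial wells, with median UMIs from 594 (endothelial) to 2069 (conventional dendritic). The other 965 wells met no rule. RNA of hepatocytes was read in wells of all classes: albumin (Alb) had a UMI in 83.5% of plasmacytoid and 85.4% of other wells.

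Siglech, a sialic acid-binding receptor that signals through DAP12, gave 581 UMIs in 91 of the 109 wells and 90 UMIs in all the other wells together. Its level was 5286 (4865 to 5734) in plasmacytoid wells and 38.2 in the others, with 211 in B wells as the next class and between 12.9 and 37.1 in the other 5. Of the 38 Siglech UMIs of B wells, 33 lay in 6 wells with at least 2 rule UMIs, and the other 183 B wells stood at 29.1. Klk1, a tissue kallikrein, gave 253 UMIs in 68 wells, a level of 2302 against 7.64. Cox6a2, the heart and muscle form of a cytochrome c oxidase subunit, gave 128 UMIs in 50 wells, a level of 1165 against 8.92. The chosen wells held 86.6% of all Siglech, 93.4% of Klk1 and 85.9% of Cox6a2 UMIs, shares that the choice itself raises. Conventional dendritic wells held 0 UMIs of Klk1 and of Cox6a2. Ccr9, the receptor for the chemokine CCL25, was less restricted: it reached 2193 in plasmacytoid wells (241 UMIs, 75 wells), 133 in B and 82.3 in T wells. Of all rule gene UMIs, the 6 B wells named above held 76 of the 89 in the B class. In the T class, 4 wells with at least 2 rule UMIs held 17 of 37. Klra17, a lectin-like receptor of the Ly49 family, gave 40 UMIs in 28 wells (364 against 3.82), and Cd300c, an Ig-like receptor, 39 UMIs in 26 wells (355 against 2.12). Cell types that should lack Siglech also held a UMI of it in a low share of wells, 0.932% of endothelial and 1.64% of T wells (median 594 and 963 UMIs), beside 83.5% of plasmacytoid wells. With every well thinned to 300 UMIs, the plasmacytoid shares were 61.5% for Siglech, 43.1% for Klk1, 39.4% for Ccr9 and 23.9% for Cox6a2.

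**Figure D1:**
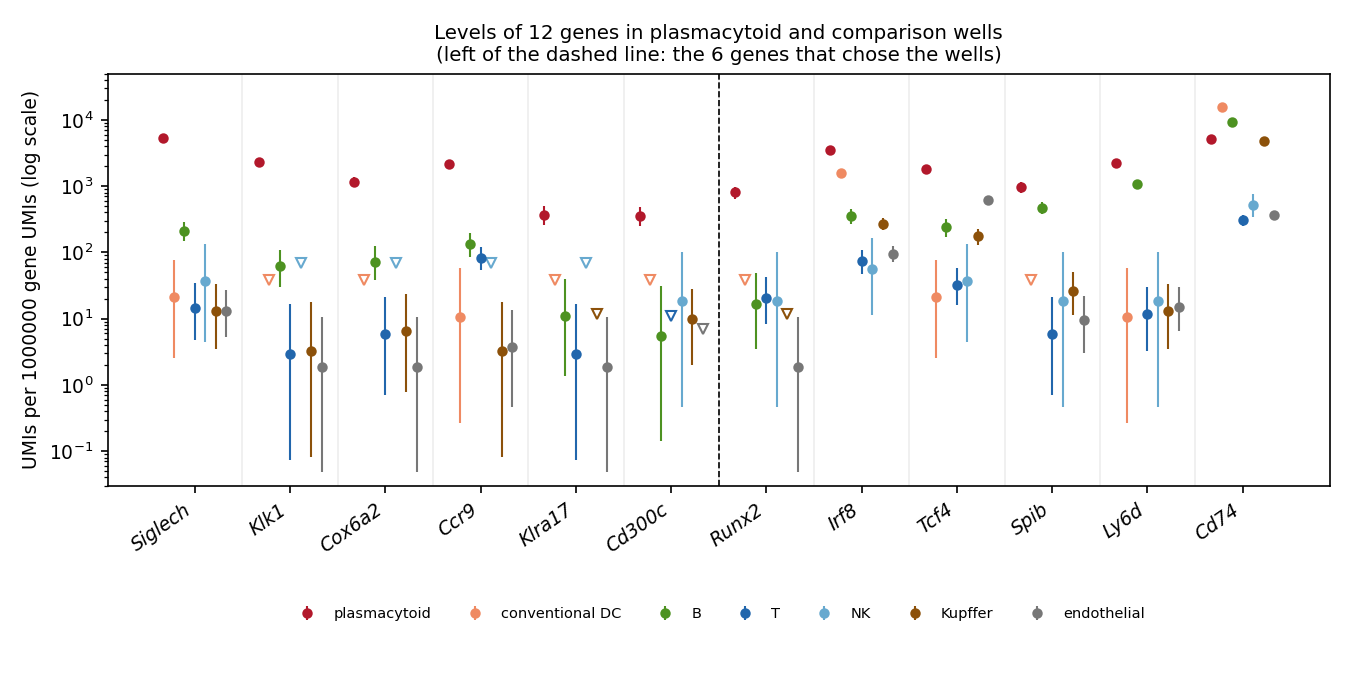
Levels (UMIs per 1000000 gene UMIs, log axis) of 12 genes in plasmacytoid wells and 6 other classes of wells. Points are levels from summed UMIs and bars exact 95% Poisson intervals. Open triangles mark the upper end of that interval where a class held 0 UMIs. The 6 genes left of the dashed line chose the wells. Siglech stands at 5286 in plasmacytoid wells and at most 211 elsewhere. The 211 is that of B wells, where 6 wells with at least 2 rule UMIs hold 33 of its 38 UMIs. Cd74, in contrast, is higher in conventional dendritic (15812) and B wells (9344) than in plasmacytoid wells (5059).

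Each of these genes was also read in wells chosen by the other 5, which does not use the gene itself. Siglech then had a UMI in 75 of 93 wells (80.6%, 71.1 to 88.1) against 2.62% of the other wells, and its log2 ratio of levels was 6.46 (6.19 to 6.74). Klk1 was found in 62 of 103 such wells (60.2%) at a log2 ratio of 7.22, and Cox6a2 in 47 of 106 (44.3%) at 6.61. Ccr9 was found in 66 of 100 wells (66%) at 5.56, Klra17 in 27 of 108 (25%) at 6.40, and Cd300c in 26 of 109 (23.9%) at 7.38. The smallest of these 6 ratios, that of Ccr9, was 47.1-fold. All wells chosen this way were among the 109, and the 6 genes were picked together with these data known. These readings therefore describe the choice and do not test the label. Among the 54 plasmacytoid wells with at least 800 UMIs, 32 held both Siglech and Klk1, 15 Siglech without Klk1 and 2 Klk1 without Siglech. Of all 109 wells, 11 held UMIs of a single rule gene, 27 of 2, 30 of 3, 25 of 4, 13 of 5 and 3 of all 6.

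The promoters of the 3 rule genes with most UMIs and of the given marker Runx2 are printed because TCF4, RUNX2 and SPIB, factors of these cells, recognise short motifs in DNA. Sequences are the 250 bases before to 50 after each gene's start from RefSeq on GRCm38.p6, the coding strand 5′ to 3′. Siglech lies at chr7:55767934-55768233 (plus strand), Klk1 at chr7:44225110-44225409 (plus), Ccr9 at chr9:123766961-123767260 (plus) and Runx2 at chr17:44814578-44814877 (minus). Capitals mark the core motifs CAGGTG (E proteins such as TCF4), TGTGGT (RUNX factors) and GAGGAA (PU.1 and SPIB), or the same motifs on the other strand, read there as CACCTG for the first, ACCACA for the second and TTCCTC for the third.
Siglech: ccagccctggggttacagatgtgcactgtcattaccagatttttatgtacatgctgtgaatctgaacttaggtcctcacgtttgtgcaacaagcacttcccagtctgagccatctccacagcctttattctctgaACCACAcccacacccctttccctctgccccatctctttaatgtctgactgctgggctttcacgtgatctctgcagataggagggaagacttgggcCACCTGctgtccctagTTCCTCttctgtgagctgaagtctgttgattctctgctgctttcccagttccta
Klk1: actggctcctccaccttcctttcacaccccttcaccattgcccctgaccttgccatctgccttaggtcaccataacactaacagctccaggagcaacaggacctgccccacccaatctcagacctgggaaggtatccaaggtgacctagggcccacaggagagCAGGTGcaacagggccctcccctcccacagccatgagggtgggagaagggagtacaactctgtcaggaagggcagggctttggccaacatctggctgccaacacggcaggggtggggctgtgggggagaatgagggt
Ccr9: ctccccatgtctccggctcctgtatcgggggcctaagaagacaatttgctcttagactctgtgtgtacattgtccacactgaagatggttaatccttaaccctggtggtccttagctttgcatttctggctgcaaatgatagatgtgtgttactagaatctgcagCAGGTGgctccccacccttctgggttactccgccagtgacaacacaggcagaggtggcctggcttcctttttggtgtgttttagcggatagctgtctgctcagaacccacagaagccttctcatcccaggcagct
Runx2: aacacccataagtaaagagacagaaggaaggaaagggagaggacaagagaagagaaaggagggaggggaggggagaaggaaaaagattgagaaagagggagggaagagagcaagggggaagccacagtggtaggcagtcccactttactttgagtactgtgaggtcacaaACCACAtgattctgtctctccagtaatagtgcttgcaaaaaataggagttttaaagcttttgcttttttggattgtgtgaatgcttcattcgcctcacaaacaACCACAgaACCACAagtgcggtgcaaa
The Siglech window held 1 match of each motif, those of Klk1 and Ccr9 1 CAGGTG each, and that of Runx2 3 TGTGGT on the other strand. Of the rule genes not printed, Klra17 held 2 GAGGAA and 0 CAGGTG, and Cd300c 1 CAGGTG and 1 TGTGGT. Over 32851 windows of the same length, 20.2% held CAGGTG, 16.8% TGTGGT and 28.3% GAGGAA, and 52.4% held any of them. Of 31 windows of plasmacytoid identity genes outside the rule, 7 (22.6%) held CAGGTG, 8 (25.8%) TGTGGT and 16 (51.6%) GAGGAA. A match is a description, not a site or a cause.

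The wells were also described by 43 genes known from plasmacytoid dendritic cells that the choice did not use, among them the given marker Runx2; the list was drawn up with these data known, so it describes the wells and does not test the label. Their summed level was 32836 (31774 to 33925) in plasmacytoid wells and 5615 in the other wells, and by class it ranged from 4125 in T to 8636 in Kupffer wells. By rule UMIs, the 9 wells with 2 rule UMIs had a summed level of 13221, the 9 with 3 had 26943, the 41 with 4 to 9 had 30063 and the 50 with at least 10 had 36853. Just outside the threshold, 65 wells with 1 rule UMI had 5618 and 1424 wells with 0 had 4965, with at most 1 excluded UMI in both. Per well, the level ran from 1420 to 61489 with a median of 33827 in plasmacytoid wells, against a median of 4590 in the others. It lay above the 95th percentile of the other wells, 13350, in 101 of the 109 wells (92.7%).

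**Figure D2:**
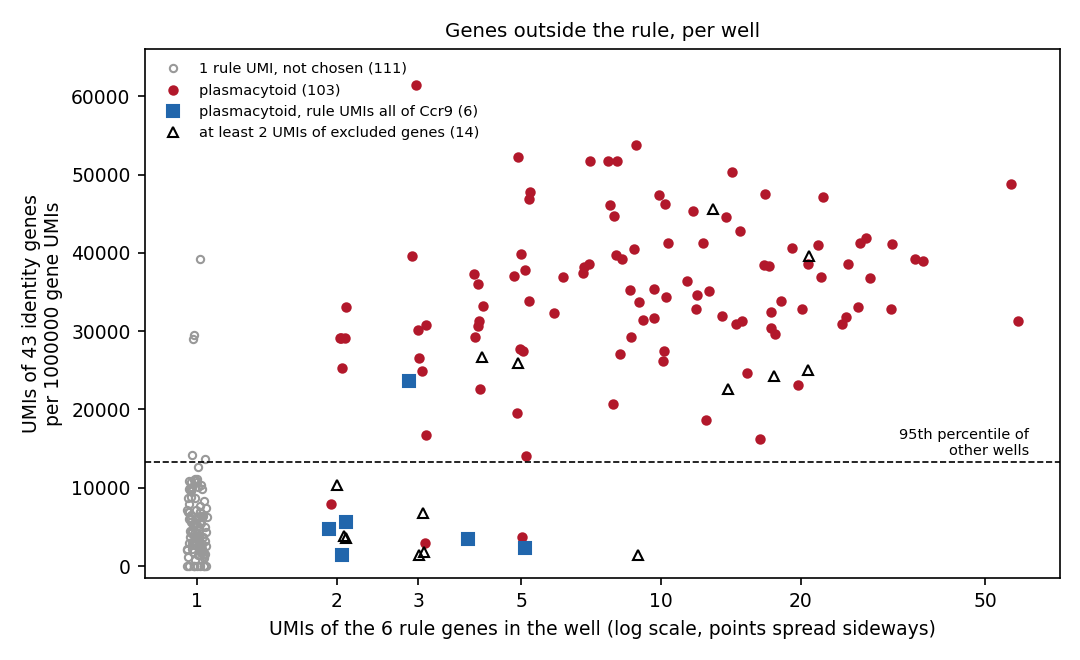
Summed level of 43 plasmacytoid identity genes outside the rule (UMIs per 1000000 gene UMIs, vertical axis) against UMIs of the 6 rule genes (horizontal log axis, points spread sideways), 1 point per well with at least 1 rule UMI. The plasmacytoid wells lie above the dashed line (13350, the 95th percentile of other wells) except 8, and 5 of those 8 hold no rule gene but Ccr9.

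The 8 wells at or below that line had at most 5 rule UMIs, and 5 of them held UMIs of no rule gene but Ccr9. In all, 6 plasmacytoid wells were chosen by Ccr9 alone, with a median of 1934 UMIs. Their summed identity level was 6145 (4722 to 7862), an interval that holds the 5615 of the other wells, whereas wells chosen by Siglech alone (3 wells) had 25344 and by Klk1 alone (2 wells) 30207. The Ccr9-only well of number range 2 had an identity level of 23585, and the 5 of number range 1 had 1420 to 5692. They carried 0 UMIs of Tcf4 and of Bst2, but 23 of the 40 Id2 UMIs and 13 of the 27 Il7r UMIs of all plasmacytoid wells. One of them held 7 UMIs of the NK class genes, another 5 of the T class genes. Without these 6 wells the summed identity level was 35582, that of Irf8 3833, and that of Id2 171. Wells with at least 2 rule UMIs that the excluded genes removed were 14, of which 6 held at least 2 Cd79b and 5 at least 2 Cd3g UMIs, and their summed identity level was 12335 (10958 to 13836).

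Of 2315 genes with enough UMIs (10 expected in plasmacytoid wells at the mean of the compared levels, the 11 rule genes left out), 348 (15%) were at least 2-fold higher and 276 (11.9%) at least 2-fold lower in plasmacytoid wells than in all other wells. A gene seen in only 1 of the groups passed that filter through its level there, so the counts are descriptions. The median log2 ratio over all of them was 0.11. Of the 348 higher genes, 283 had their highest level in plasmacytoid wells, 21 in B, 20 in conventional dendritic, 15 in Kupffer, 8 in NK and 1 in endothelial wells, and 104 were at least 2-fold above every class. Wells fell into 2 ranges of well numbers, 5 plate-sized blocks in range 1 and 6 in range 2. In both ranges, 342 of the 348 had a ratio above 1. The 348 were picked from both ranges summed, so this count is in part fixed by the choice and is no replicate check. Of the 276 lower genes, 127 were highest in endothelial and 65 in Kupffer wells. Against the other leukocyte wells alone (867 conventional dendritic, B, T, NK and Kupffer wells), 14.4% of the genes were at least 2-fold higher and 9.91% lower. Against single classes these shares were 21.7% and 13.6% for conventional dendritic, 18.9% and 11.8% for B, 16.9% and 14.3% for T, 18.5% and 20.7% for NK, 23.7% and 18.6% for Kupffer, and 27.4% and 23.9% for endothelial wells.

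The largest ratio outside the rule was that of Klk1b27, a kallikrein next to Klk1 whose reads could be shared with it: 36 UMIs in 21 wells against 5 in all other wells (log2 ratio 7.27). Of 21 kallikrein genes besides Klk1, 17 had 0 UMIs in plasmacytoid wells and only Klk1b27 passed the filter. Cd209d, a C-type lectin, gave 20 UMIs against 4 (6.74), and Fads3, a fatty acid desaturase family member, 24 against 8 (6.01). Smim5, a small membrane protein, gave 37 against 15 (5.72). Rpgrip1, known from photoreceptor cilia, reached 500 (377 to 651) against 12.7 (5.30), with 768 in range 1 and 223 in range 2. Chdh, a choline dehydrogenase, Zc3h12c, an RNA-binding zinc finger protein, and Pacsin1, an endocytosis adaptor, had log2 ratios of 4.66, 4.64 and 4.62. Gapt, Ptprs, Tubgcp5 and Kmo followed at 4.36, 4.33, 4.26 and 4.25. Kmo encodes kynurenine monooxygenase of tryptophan breakdown, Ptprs a receptor phosphatase, Gapt a membrane adaptor and Tubgcp5 a part of the gamma-tubulin complex. P2ry14, a receptor for UDP-sugars, was shared with conventional dendritic wells (246 and 158), and Atp1b1, a sodium pump subunit, with NK wells (628 and 278).

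Of the 43 identity genes outside the rule, 34 had enough UMIs, with a median log2 ratio of 3.20. Of the 34, 30 were at least 2-fold higher, none lower and 4 in between, beside 15% higher and 11.9% lower of all genes. Ly6c2, a GPI-anchored surface protein, gave 258 UMIs in 73 wells, a level of 2347 (2070 to 2652) against 212. Plac8, a small cysteine-rich protein, stood at 2411 (2130 to 2720) against 379, with 918 in B wells. Rnase6, an antimicrobial ribonuclease, stood at 837 against 55.2 and at 369 in conventional dendritic wells. Some members were shared with Kupffer wells: Cybb, the NADPH oxidase subunit, stood at 1428 in plasmacytoid and 2145 in Kupffer wells, and Pltp, a phospholipid transfer protein, at 901 (732 to 1097), an interval that holds the 1000 of Kupffer wells. The 4 members short of 2-fold were Ctsl, a cathepsin (0.53), Ptprcap, a CD45-associated protein (0.57), Cd7, a lymphocyte receptor (0.78, with 1577 in NK wells) and Zeb2, a repressor of Id2 (0.14). Against other leukocyte wells alone the list median was 3.18.

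Among 26 transcription factors, 17 had enough UMIs, with a median log2 ratio of 0.97. Of the 17, 8 were at least 2-fold higher and 2 lower, beside 15% and 11.9% of all genes. Runx2, which drives the exit of plasmacytoid cells from bone marrow, gave 88 UMIs in 43 wells and 40 in all other wells, a level of 801 (642 to 986) against 17. It had 0 UMIs in conventional dendritic and Kupffer wells and at most 20.6 elsewhere. Irf8, a factor of dendritic cells, reached 3539 (3196 to 3909) in plasmacytoid wells and 245 over all other wells. It stood at 1570 in conventional dendritic and 350 in B wells. Tcf4 stood at 1783 (1542 to 2051) against 242, a log2 ratio of 2.88 (2.64 to 3.12), and its next class was endothelium at 609.5. Its log2 ratio was 2.24 in range 1 and 3.46 in range 2. Spib and Bcl11a were both shared with B wells. Spib stood at 955 in plasmacytoid and 473 in B wells, with 0 UMIs in conventional dendritic wells, and Bcl11a at 701 and 323. Irf7, the factor that amplifies interferon transcription, reached 555 (425 to 713), above the 212 of all other wells and below the 864 of Kupffer wells.

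Id2, the inhibitor of E proteins, was lower, at 364 (260 to 496) against 1159 over all other wells, a log2 ratio of -1.67 (-2.16 to -1.22). It reached 2349 in conventional dendritic, 2839 in NK and 172 in B wells. In range 2 plasmacytoid wells held 3 Id2 UMIs (log2 ratio -4.22), whereas range 1 held 37 (-0.89), of which 23 lay in Ccr9-only wells. Without the 6 Ccr9-only wells its level was 171. Id3, its relative, had a log2 ratio of -1.97. Zbtb46, Batf3 and Nfil3, factors of conventional dendritic cells, had 0 UMIs in plasmacytoid wells, which allows a level of up to 27.3 for each.

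**Figure D3:**
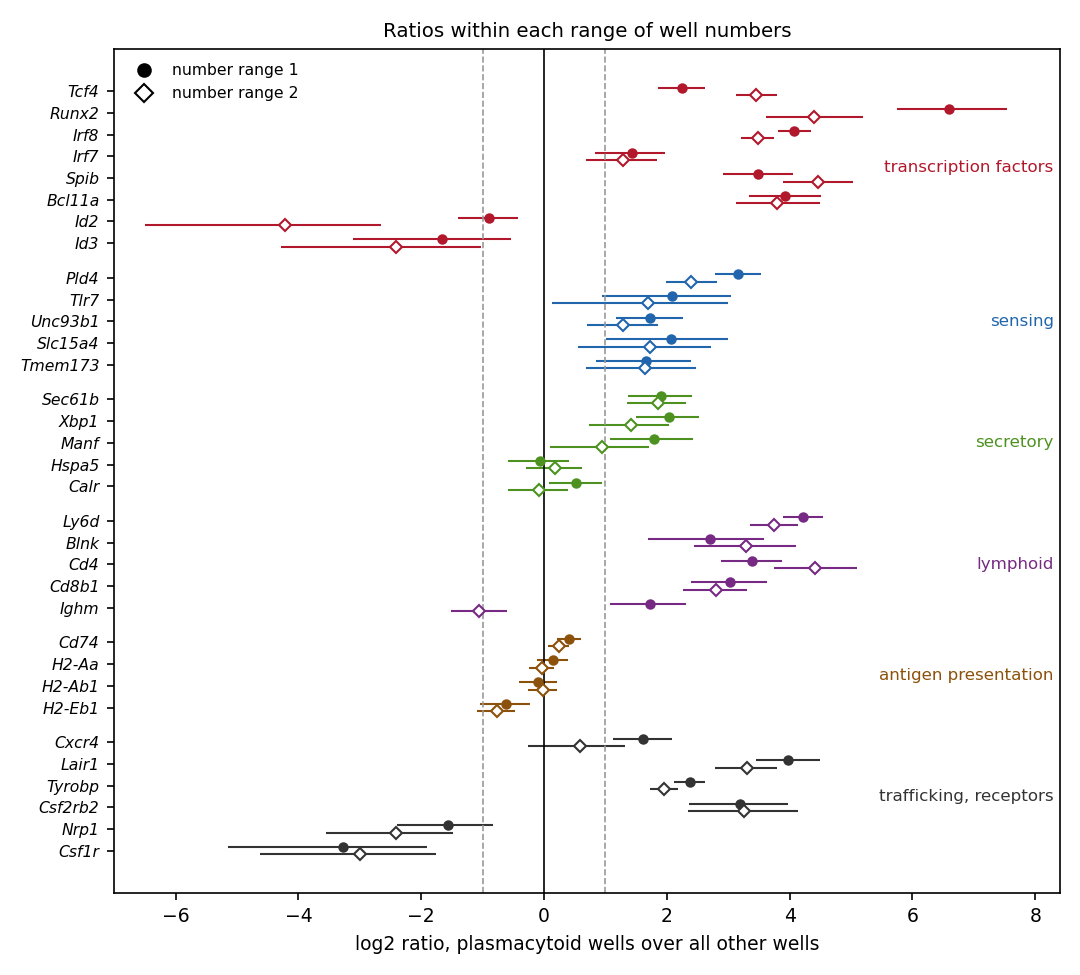
Log2 ratio of levels, plasmacytoid over all other wells, within number range 1 (40 plasmacytoid wells, filled circles) and number range 2 (69 wells, open diamonds), with exact 95% intervals; the dashed lines mark 2-fold. Most genes lie on the same side in both ranges, and Ighm lies at 1.72 in range 1 and -1.05 in range 2.

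Of 28 genes of nucleic acid sensing, 17 had enough UMIs, with a median log2 ratio of 0.94. Of the 17, 8 were at least 2-fold higher and 1 lower, beside 15% and 11.9% of all genes. Tlr7, the endosomal receptor for single-stranded RNA, gave 16 UMIs in 12 wells, a level of 146 (83.2 to 236) against 39.5, beside 159 in Kupffer and 0 UMIs in conventional dendritic wells. Tlr9, the receptor for CpG DNA, had 0 UMIs here and 2 in all other wells, which allows no comparison at this depth. Among transcripts of proteins that serve these receptors, Unc93b1, which carries them to endosomes, had a log2 ratio of 1.56, Slc15a4, a lysosomal transporter, 1.93, and Cnpy3, a folding chaperone of the receptors, 1.64. The adaptor Myd88 (0.49), the kinase Irak1 (0.78) and the chaperone Hsp90b1 (0.94) were short of 2-fold. Unc93b1 was as high in Kupffer wells (618) as in plasmacytoid wells (582, 448 to 744). Pld4, an exonuclease that trims nucleic acids in endosomes, stood at 1365 (1155 to 1601) against 189, and above the 643 of conventional dendritic and 599 of Kupffer wells. Tmem173, which encodes the DNA sensor adaptor STING, had a log2 ratio of 1.62 and Pik3ap1, a signalling adaptor, 1.58. Lgmn, a protease that cuts endosomal receptors, was lower (-1.75), with its highest level in Kupffer wells.

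Type I interferon genes were hardly detected. Of 20 such genes, 19 had 0 UMIs in plasmacytoid wells, which allows a level of up to 27.3 for each (3 counts over the group), and Ifnb1 had 1 UMI. Of 30 interferon-response genes, 9 had enough UMIs, with 3 higher and 1 lower, beside 15% and 11.9% of all genes. Their median log2 ratio was 0.15, near that of all genes. The 3 higher genes were Bst2, a tether of virions, at 2011 against 227, Stat2 (1.61) and Trim30a (1.32). Bst2 also marks plasmacytoid cells in the mouse and belongs to the 43 identity genes. Isg15, a ubiquitin-like protein induced by interferon, gave 13 UMIs in 4 wells, and Ifitm3, a membrane protein that blocks viral entry, was lower (-3.04).

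The secretory pathway list had 25 of 30 genes with enough UMIs, with a median log2 ratio of 0.69. Of the 25, 10 were at least 2-fold higher and none lower, beside 15% and 11.9% of all genes. Sec61b, a subunit of the translocation channel, gave 84 UMIs in 51 wells, a level of 764 (610 to 946) against 199, and no class exceeded 390. Xbp1, the factor that expands the endoplasmic reticulum, stood at 573 (440 to 733) against 169, and no class exceeded 196. Sec61a1 (1.32), Tram1 (1.10) and Ostc (1.09), the signal peptidase subunits Spcs1, Spcs2, Spcs3 and Sec11c (1.03 to 1.47), and Manf (1.44) made up the rest of the 10. The chaperones and folding enzymes Hsp90b1 (0.94), Dnajc3 (0.65), Pdia6 (0.53), Canx (0.45), Calr (0.28) and Hspa5 (0.08) were short of 2-fold, whereas Manf, also induced by the unfolded protein response, was among the 10. Mzb1, a plasma cell chaperone, gave 6 UMIs, and Jchain, which joins immunoglobulin polymers, 1 UMI against 778 in all other wells.

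Of 29 surface receptors, 17 had enough UMIs, with a median log2 ratio of 1.10. Of the 17, 9 were higher and 5 lower, beside 15% and 11.9% of all genes. Tyrobp, which encodes the adaptor DAP12 used by SiglecH, stood at 3230 (2903 to 3584) against 677, and at 2051 in Kupffer wells. Lair1, an inhibitory collagen receptor, stood at 974 against 74.3, Ly86 (MD-1) at 1037 against 325, and Lag3, a receptor that binds MHC class II, at 246 against 17. Csf2rb and Csf2rb2, the near-identical beta chains of cytokine receptors, had log2 ratios of 2.18 and 3.23, which reads shared between them could alter. Ptprf, a receptor phosphatase, and Clec10a, a galactose lectin, had log2 ratios of 4.22 and 3.36, and Ifnar2, a chain of the interferon receptor, 1.10. The lower receptors were those of macrophages and endothelium: Csf1r (-3.11), Fcgr3 (-3.26), Fcgr2b (-3.02), Cd81 (-3.06) and Nrp1 (-1.91, with 2786 in endothelial wells). Against other leukocyte wells only, the ratios of Fcgr2b (0.11) and Nrp1 (0.35) changed sign. Of 13 other Siglec and CD300 genes, 2 had enough UMIs, Cd300ld (-2.90) and Cd300lg (-3.52), and none was higher, while 10 Ly49 genes besides Klra17 had 0 UMIs each.

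Genes usually met in lymphocytes went both ways. Of 20 such genes, 5 had 0 UMIs and 8 had enough, of which 3 were at least 2-fold higher (Ly6d, Blnk and the kinase Syk, 1.15), 2 lower (Lck, a T cell kinase, -1.77, and Jchain) and 3 in between, with a median log2 ratio of 0.46. Against other leukocyte wells alone, 2 were higher and 2 lower (median 0.23). These few members stand beside the 15% higher and 11.9% lower of all genes. Ly6d, an early B-lineage marker, stood at 2220 (1950 to 2517) in plasmacytoid and 1062 in B wells, and at most 18.6 in the other 5 classes. Blnk, the B cell linker, stood at 318 and 267. The coreceptor genes Cd4 and Cd8b1 are counted with the identity list: Cd4 stood at 883 (716 to 1077) against 220.4 in T wells, and Cd8b1 at 701 against 285. Cd3d and Cd3e, which the choice did not use, had 4 UMIs each, whereas the low count of Cd3g was set by the choice. Dntt, the enzyme that adds bases at V(D)J joints, gave 17 UMIs in 14 wells against 7 in all other wells, too few for the filter. Il7r, the interleukin-7 receptor, gave 27 UMIs (246 against 152), and its level was 140.5 without the Ccr9-only wells. Ighm, the IgM heavy chain, gave 69 UMIs in 35 wells (628 against 662, B wells 5512), with a log2 ratio of 1.72 in range 1 and -1.05 in range 2. The level of Ighm in the other wells was 141 in range 1 and 1648 in range 2. Among the B class, 6 wells also held at least 2 rule UMIs: their summed identity level was 22566 and Ighm stood at 254, against 7202 and 5753 in the other 183 B wells. Siglech stood at 4184 in those 6 and at 29.1 in the 183.

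Trafficking genes included 12 of 19 with enough UMIs (median log2 ratio 0.80). Of the 12, 4 were at least 2-fold higher and none lower, beside 15% and 11.9% of all genes. Among the 4 were Selplg, the selectin ligand PSGL-1 (1.34), and Cxcr4, the marrow retention receptor (1.21). Cxcr4 stood at 749.7 in range 1 and 297 in range 2, and at 768 in B wells. Cxcr3 had a ratio of 0.89 and Ccr2 -0.64, short of 2-fold. Ccr7, which guides mature dendritic cells to lymph nodes, had 0 UMIs against 299 in all other wells.

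Antigen presentation genes stood lower in plasmacytoid than in conventional dendritic and B wells, though near the level of all other wells. Of 15 genes, 10 had enough UMIs (median log2 ratio 0.22). Against all other wells 3 were at least 2-fold higher and none lower, beside 15% and 11.9% of all genes. Cd74, the invariant chain, gave 556 UMIs in 100 of 109 wells, a level of 5059 (4647 to 5497), against 15812 in conventional dendritic, 9344 in B and 306 in T wells. The MHC class II chains followed the same order: H2-Aa stood at 3357, 15159 and 6107 in plasmacytoid, conventional dendritic and B wells, and H2-Eb1 at 1292, 10650 and 3493. The 3 higher genes act in peptide loading: H2-DMa (1.05), H2-DMb1 (1.32) and H2-Oa (1.47). Against other leukocyte wells alone, none of 10 genes of the list was 2-fold higher or lower (median -0.21). H2-DMb1 had a ratio of 2.15 in range 1 and 0.03 in range 2. Of 15 conventional dendritic markers outside the rule, 3 had 0 UMIs and 6 had enough. Of the 6, 2 were higher and 3 lower, beside 15% and 11.9% of all genes. The 2 higher, Clec10a (200 against 158 in conventional dendritic wells) and Clec9a (164 against 442), are lectins that bind glycans and dead cells. Cst3, cystatin C, a general dendritic marker, stood at 1483 against 16307 in conventional dendritic wells.

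Lysosomal genes were mixed: of 17 with enough UMIs, 5 were higher and 6 lower (median 0.21), beside 15% and 11.9% of all genes. Psap, prosaposin (1.89), Ctsh (1.74), Grn, progranulin (1.53), Ctsz (1.03) and Cd68 (1.03) were higher. Ctsd (-1.33), Ctsc (-1.21), Lamp2 (-1.43), Lgmn, Gzma (-3.32) and Gzmb (-3.23) were lower. Granzyme B, which human plasmacytoid cells contain, thus gave 2 UMIs here, against 1021 per 1000000 in NK wells. Of 12 respiratory chain genes with enough UMIs besides Cox6a2, none was 2-fold higher or lower, beside 15% and 11.9% of all genes. Cox6a1, the common form of the subunit, stood at 519 (393 to 672) against 431. Of 16 cell cycle genes, 8 had 0 UMIs and 3 had enough, with none higher and 1 lower, beside 15% and 11.9% of all genes. The summed level of all 16 was 646 (505 to 815) against 957 in all other wells. It was near that of endothelial (649) and Kupffer wells (605). B (818), NK (835), conventional dendritic (1359) and T wells (1490) stood higher. Of 11 immediate early genes with enough UMIs, none was 2-fold higher and 3 were lower (median -0.85), beside 15% and 11.9% of all genes. The summed level of all 18 immediate early genes of the list was 1956 in plasmacytoid wells against 2871 in all other wells. It was 1880 in T and 1800 in NK wells, and 2586 or more in the other classes.

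Markers of the cell types that surround these cells were low, which the choice of wells in part fixed. Wells with more than 1 UMI over Clec4f, Clec4g, Cd3g, Cd79b and Xcr1 were placed in the comparison. Low Kupffer, endothelial, T and B markers thus describe the choice and do not test the label. Of all genes, 11.9% were lower. All 8 Kupffer markers with enough UMIs were lower (median -3.43), as were 9 of 11 endothelial (-3.32), 6 of 6 NK (-2.42), 4 of 6 T (-2.32) and 3 of 4 monocyte markers (-2.85), and no B marker outside the rule had enough UMIs. Stab2, an endothelial scavenger receptor, had 0 UMIs against 949 in the other wells, at least 14.8-fold lower, and Clec14a and Mertk with 0 UMIs were at least 9.29-fold and 7.36-fold lower (floor of 3 counts over the group). Adgrf5, Sparc, Cyp4b1, F8 and Tspan7 gave 1 UMI each and Lyve1 2, with log2 ratios from -6.06 to -5.07. The 2 endothelial markers short of 2-fold were Cdh5 (282 against 301 in all other and 877 in endothelial wells) and Pecam1. Against other leukocyte wells alone, 2 endothelial markers had enough UMIs, with a median of 0.81. None of 11 hepatocyte genes passed 2-fold over all wells (median -0.24). The summed level of all 12 hepatocyte genes of the list differed by number range. In range 1 it was 4159 in plasmacytoid and 8580 in other wells (median -0.90, with Alb at -1.13 and Apoa1 at -1.03). In range 2 it was 11896 and 13613 (median 0.03). In 16 plasmacytoid wells at least 2 UMIs of another class's genes were found, and their summed identity level was 24726, against 34989 in the other 93. The part of these wells, or of free RNA, in any ratio above was not tested. Without the 16 wells 316 genes were higher and 207 lower of 1773 with enough UMIs. With them the counts were 348 and 276 of 2315.

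Plasmacytoid wells were unevenly spread over the well numbers. Range 1 held 40 among 1526 kept wells (2.62%, 1.88 to 3.55) and range 2 held 69 among 1166 (5.92%, 4.63 to 7.43). Within range 1 each of the 5 blocks of 384 well numbers held 5 to 12, or 1.84% to 3.66%. In range 2 the last 3 blocks held 26, 18 and 25 (9.81%, 6.82% and 8.99%), whereas the first 3 held 0 of 359 wells, which allows a share of up to 0.836%. Those 3 empty blocks were 81.3% endothelial wells, against 2.48% endothelial in the 3 blocks with plasmacytoid wells. Counted among wells of any leukocyte class, the plasmacytoid share was 7.23% (5.22 to 9.72) in range 1 and 16.3% (12.9 to 20.2) in range 2. The intervals cover the counting of wells only and do not test a difference between mice or libraries. The 5 and 6 blocks equal the numbers of libraries of the 2 mice, but no label or header ties a block to a library, and mouse, age, sort and number range cannot be told apart. Median depth of plasmacytoid wells was 1294 UMIs in range 1 and 648 in range 2, beside 825 and 575 in the other wells. Gene UMIs per spike-in UMI were higher in plasmacytoid than in other wells in 6 of the 8 blocks that held them.

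**Figure D4:**
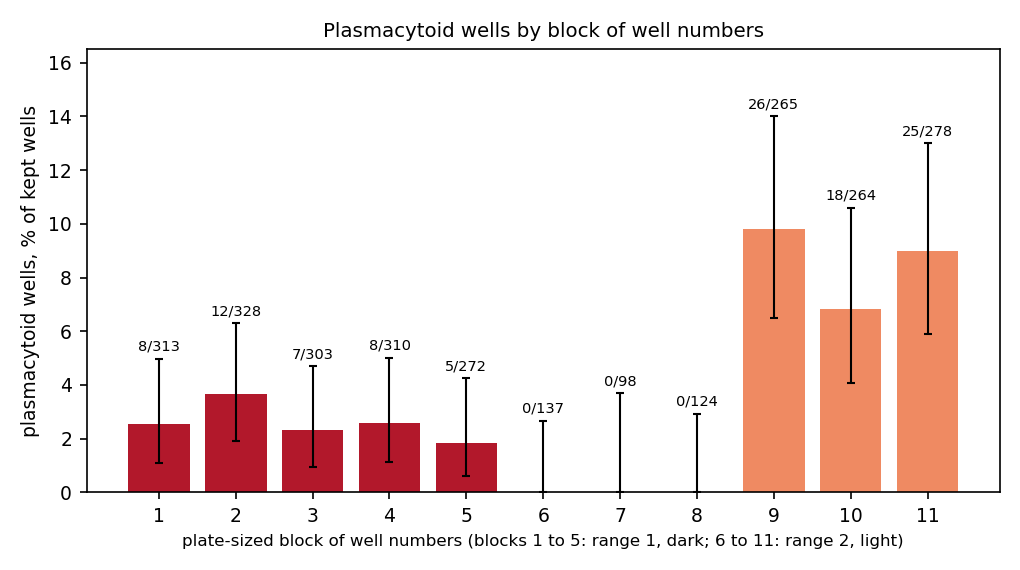
Share of plasmacytoid wells among wells of at least 300 UMIs (vertical axis, %) in each of 11 plate-sized blocks of well numbers, with exact 95% binomial intervals and the counts above each bar; blocks 1 to 5 form range 1 (dark) and 6 to 11 range 2 (light). Blocks 6 to 8 hold no plasmacytoid well, and blocks 9 to 11 hold 6.82% to 9.81%.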

How the data were processed

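The deposited tables are whole-number counts of UMIs, for each gene symbol in each well, and the values show no scaling by the authors. The submitters' processing notes name bcl2fastq 2.15.0.4 and mm9; the annotation, like the aligner, is not given in the sources used here. All values start from those tables. The 92 spike-in rows (52.8% of UMIs) and 68 symbols that differ only in letter case (411 UMIs) were left out. None of the 8341 well columns names its library or mouse, so each table was pooled and the planned edgeR fit per mouse could not be made. Wells under 300 gene UMIs (1028 of 3720) were left out. Doublets were not called, and a limit on UMIs per well was tried instead. The method sorts cells into wells, but 14 wells held at least 2 UMIs of rule genes and at least 2 of excluded genes. Whether these wells held more than 1 cell was not tested. Exact intervals came from the Poisson distribution for levels and from the conditional binomial for ratios, and the calculation was tested on simulated counts. The lists held 441 genes, of which 435 were in the table, 11 of them under older names.

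Named genes were the rule genes and given markers, the 15 largest and 12 smallest ratios with separate intervals, and up to 4 of the highest members per list; others were named after their values were seen. A few measured genes are not reported here. The wells and lists were chosen with earlier results of these data known. Alternatives changed depth, rule, weighting, comparison wells, filter and thinning. Promoters are from the RefSeq table on GRCm38.p6 (no entry for Cox6a2 was used), and the deposited files hold no coordinates. Python 3.11.15 with numpy 2.4.6, scipy 1.17.1, pandas 2.3.3 and matplotlib 3.10.9 was used.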

Additional observations from a re-analysis of the deposited data

Results flagged for a closer look

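The table of hepatocyte pairs, which entered no comparison, held 12 UMIs of the 6 rule genes in 5 of 4621 pairs. A single pair held 8 of them (Siglech 4, Klk1 2, Ccr9 2) among 33340 gene UMIs, together with 7 UMIs of Bst2, 5 of Irf8, 3 of Tcf4 and 1 of Spib. Over all 4621 pairs, Bst2 had a UMI in 3453 (at most 27 in a pair) and Tcf4 in 1399 (at most 5). Irf8 had a UMI in 269 pairs (at most 5) and Spib in 2.

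Among the 1028 single wells under 300 gene UMIs, 5 otherwise met the plasmacytoid rule. Their median was 268 UMIs, and the summed level of the 43 identity genes was 21541 (14071 to 31563), against 5603 in all wells under 300 UMIs.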

How the results depend on the processing

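No paired analysis was possible because the wells name neither mouse nor library. The number of plasmacytoid wells was 83 with at least 500 UMIs and between 91 and 109 otherwise. Genes at least 2-fold higher and lower (348 and 276) were 93 and 46 after thinning to 300 UMIs, 679 and 722 with a filter of 5 expected UMIs and 147 and 95 with 20. They were 196 and 110 in number range 1 alone and 181 and 99 in range 2 alone. These alternatives change how many genes have enough UMIs: 480, 4617, 949, 1020 and 935 against 2315. The other settings gave 303 to 408 higher and 190 to 319 lower. The settings by number range, empty blocks, Ccr9-only wells, wells with UMIs of another class and other wells with rule UMIs were chosen after seeing the data. Against the other leukocyte classes alone, ratios changed sign for Bmp2 (0.76), Cd300lg (0.28), Clec4g (0.27), Dpp4 (0.65), Fcgr2b (0.11), Kdr (2.81), Klf4 (0.15), Nrp1 (0.35), Oit3 (1.67) and the endothelial list median (0.81). That comparison leaves out both the endothelial wells and the 965 wells of no class, and which of them moved each ratio was not tested. In range 2 alone Klf4 changed sign (0.35), and the cause was not tested. The median of the identity list ran from 2.97 to 3.41 over 19 alternatives. Depth limits Tlr9, interferon and other genes under 3 UMIs.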

Other observations

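Against the other leukocyte wells alone, genes outside the lists also stood high. Tfrc, the transferrin receptor, gave 23 UMIs in 17 plasmacytoid wells and 7 in the 867 leukocyte wells (log2 ratio 4.87, 3.60 to 6.33). Tsc22d1, a leucine zipper regulator, stood at 691 against 25.6 in leukocyte wells, but at 724 in endothelial wells, and Rell1 stood at 701 against 29.7, with 263 in endothelial wells. Upb1, an enzyme of pyrimidine breakdown, stood at 582 against 28.6. Cd209d had 0 UMIs in the leukocyte wells and was at least 59.3-fold higher (floor of 3 counts over the group). On the lower side were Slc40a1, the iron exporter ferroportin (-5.62), Hmox1, heme oxygenase (-5.00), Marco, a scavenger receptor (-4.44), and Xcl1, an NK and T cell chemokine (-4.41). Slc40a1, Hmox1 and Marco were highest in Kupffer wells (2770, 909 and 615), and Xcl1 in NK wells (1763). In conventional dendritic wells Slc40a1, Hmox1 and Marco stood at 21.1, 10.5 and 10.5. Plasmacytoid wells stood near these, at 18.2, 9.1 and 9.1, from 2, 1 and 1 UMIs. Xcl1 also had 1 UMI there.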
